A study of Mus musculus with 6 samples.

Results

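The enzymes described here carry sugar carbon through glycolysis, the pentose phosphate pathway and the tricarboxylic acid (TCA) cycle, with the pyruvate dehydrogenase complex between the first and the last. They were taken as the rows of the count table whose symbol was in a written list of 45 genes, and all 45 were found among the 21606 genes of the table: 19 of glycolysis, 7 of the pentose phosphate pathway, 3 of pyruvate dehydrogenase and 16 of the TCA cycle. RNA came from bone marrow cells of wild-type C57BL/6 mice, an inbred laboratory strain, sorted for high activity of aldehyde dehydrogenases (ALDHbr), with 3 libraries from females and 3 from males; the labels give no age or treatment and do not state that the replicates are separate animals, so p-values measure the spread between these samples only. Libraries were made by BRB-seq, a bulk method that reads transcripts from the 3′ end, so that counts do not grow with transcript length as they do when whole transcripts are read. Levels are given as normalised CPM, each gene's counts scaled to its library's total after TMM correction and multiplied to the usual CPM unit.

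Glycolysis splits glucose into pyruvate in the cytosol, and lactate dehydrogenase then converts pyruvate and lactate into each other. The pentose phosphate pathway makes NADPH in its oxidative branch and ribose phosphate for nucleotides in its non-oxidative branch. Pyruvate dehydrogenase turns pyruvate into acetyl-CoA in mitochondria, where the TCA cycle oxidises it. Several steps can be run by any of a few related genes that differ in their tissue or cell compartment. Blood stem cells in the marrow are known for relying on glycolysis, and dividing progenitors for using mitochondria more.

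Total counts ran from 679724 in male replicate 2 to 1475224 in female replicate 2. Male replicate 1 correlated more closely with the female libraries (mean r of log2 CPM 0.965) than with the other males (0.956). Male replicate 3 correlated about equally with the other males (0.960) and the females (0.961). Male replicate 2 had the lowest correlations with both sexes (0.952 with males and 0.945 with females). All 6 libraries carried the immature myeloid markers Mpo, Elane, Prtn3, Ctsg and Ms4a3 at high level. With Cebpe, which was low at a mean of 14.8 CPM, these markers summed to 12904 to 15121 CPM. Monocyte and dendritic cell markers summed to 4973 to 5268 CPM in females and 4789 to 5080 in males. Their means ran from 8.53 CPM for Siglech to 2034 CPM for Ly6c2. Late neutrophil markers summed to 29.6 to 43.2 CPM. Of the 9 T and natural killer cell markers, Cd3e, Cd8a and Ncr1 are not listed in the table. The other 6 summed to 126 to 143 CPM in females and 152 to 169 in males, without overlap. Among them Nkg7 had 905 counts, while Cd3d, Cd3g, Trac, Trbc2 and Klrb1c had 6 or fewer each. Being bulk samples, the libraries cannot tell fewer cells of a type apart from less RNA per cell.

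The clearest pattern among these enzymes was which gene of a step was used. Lactate dehydrogenase was almost wholly Ldha, the form that favours lactate, and Ldhb, the form abundant in heart, was a minor part. The RefSeq promoters of both genes (GRCm38.p6, 250 bases before to 50 after a start site) are shown because these genes run the same reaction at very different levels. Capitals mark ACGTG on either strand, the core of the hypoxia response element, which also lies within the E-box CACGTG. The Ldha window is at chr7:46845554-46845853 on the plus strand and the Ldhb window at chr6:142507908-142508207 on the minus strand.
Ldha: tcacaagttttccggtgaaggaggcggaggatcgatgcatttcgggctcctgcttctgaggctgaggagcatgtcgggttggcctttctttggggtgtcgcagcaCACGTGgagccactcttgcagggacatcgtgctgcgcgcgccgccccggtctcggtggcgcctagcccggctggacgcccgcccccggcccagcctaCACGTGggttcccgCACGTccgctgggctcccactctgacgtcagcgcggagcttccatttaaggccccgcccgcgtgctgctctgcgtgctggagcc
Ldhb: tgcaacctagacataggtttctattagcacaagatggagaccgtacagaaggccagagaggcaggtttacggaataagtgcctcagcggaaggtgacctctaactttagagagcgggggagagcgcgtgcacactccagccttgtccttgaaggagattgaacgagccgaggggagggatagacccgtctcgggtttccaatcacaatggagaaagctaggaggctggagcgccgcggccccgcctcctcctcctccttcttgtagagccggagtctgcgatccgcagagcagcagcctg
The Ldha window held 3 separate runs of the motif, of which the first and the second are whole E-boxes, and the Ldhb window held 0. The other RefSeq start site of Ldha, at chr7:46846832-46847131, held 0. In other steps the motif was not always with the gene that had more counts. Mdh1 held it and Mdh2 did not, but Pfkl and Eno1 held it in 0 windows and the minor Pfkm in 2 of 4. Aldoa held it in 2 of 3 windows and the rare Aldoc in 1 of 2. Hk1, Hk2 and Hk3 all held it, and Idh1, Idh2, Suclg2 and Sucla2 did not. Over the members, 44 genes had a window, and 16 of them held the motif in at least 1 window, against 21.8% of all genes in the promoter table. Counted by window, it was 37.1% of 62 member windows and 19.6% of all 32851 windows. Both backgrounds take in every gene of the promoter table, expressed in these cells or not, and no background of expressed genes was made. By pathway, the motif was in a window of 11 of 19 glycolysis genes (Hk1, Hk2, Hk3, Pfkm, Aldoa, Aldoc, Gapdh, Pgk1, Pgam1, Pkm and Ldha), 1 of 7 pentose phosphate genes (G6pdx), 1 of 3 pyruvate dehydrogenase genes (Pdhb) and 3 of 15 TCA genes (Idh3g, Ogdh and Mdh1). These are matches of letters and not measured sites, and genes with several start sites had more windows to match in. Ogdh held the motif in 6 of 6 windows, and the 2 Aldoa windows with it overlap and show the same site.

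The enzymes were abundant and steady. Together they held 0.937% of all counts on average. Their median level was 136 CPM over the 43 that had enough counts to be tested, against 42.4 CPM for all 8460 tested genes, and 36 of the 43 lay above that median. The median SD of log2 CPM over the 6 libraries was 0.18 for the members and 0.25 for all tested genes. Since low counts scatter more, the difference in level bears on that comparison, and its part was not tested.

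**Figure D1:**
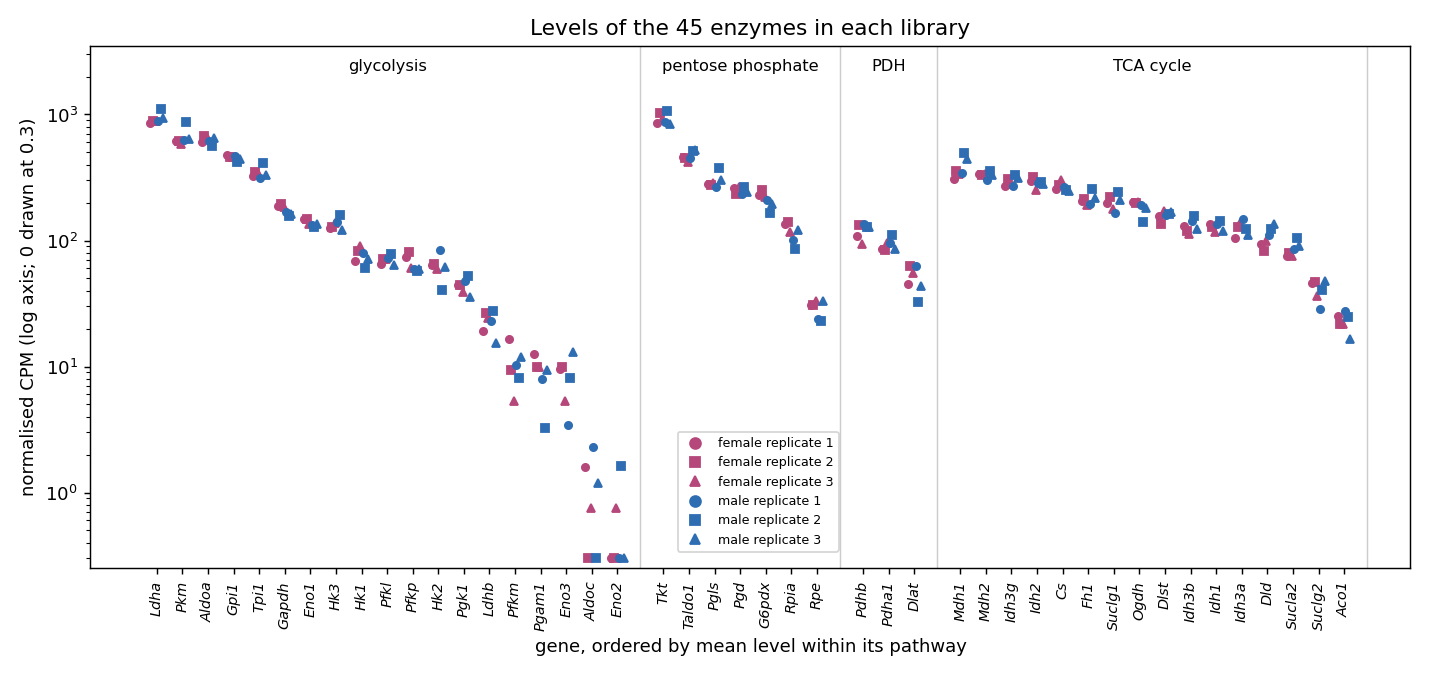
Normalised CPM (log axis) of the 45 enzymes, 1 point per library, with genes ordered by mean level within each pathway; females are pink, males blue, and a value of 0 is drawn at 0.3. Tkt and Ldha lie highest, at means of 929 and 928 CPM, and glycolysis spans from Ldha down to Aldoc and Eno2, which were at 0 in 2 and 4 of the 6 libraries.

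Tkt and Ldha had the highest CPM. Tkt, the transketolase of the non-oxidative pentose phosphate branch, had 857, 1023 and 905 CPM in females and 878, 1061 and 848 in males. Ldha had 862, 884 and 888 CPM in females and 888, 1115 and 932 in males. Male replicate 2 was the highest library for both genes. Pkm, the pyruvate kinase gene (its spliced forms are not separated in these counts), had 617, 616 and 583 CPM in females and 632, 875 and 645 in males. Aldoa followed at a mean of 629.6 CPM, and Taldo1, the transaldolase that works beside transketolase, at 470.2 CPM. Divided by exon length, which 3′ counting does not call for, Ldha ranked 1, Taldo1 2, Aldoa 3, Pkm 5 and Tkt 6 among the 45 genes, so Tkt's place depends on that choice and Ldha's much less.

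Hexokinase, which traps glucose in the cell by phosphorylation, was shared by 3 genes. Hk3, a form known from myeloid cells, held 49.7% ± 5.70 (SD, n = 6) of the counts of the step, Hk1 27.5% ± 2.99 and Hk2 22.7% ± 4.10. Hk3 held 48.8%, 46.5% and 47.6% in females and 46.4%, 61.3% and 47.9% in males, so 5 libraries lay within a narrow band and male replicate 2 stood above it. In that library Hk2, the inducible form, had 40.8 CPM against 59.7 to 83.5 CPM in the other 5.

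Phosphofructokinase, the committed step of glycolysis, was split between the liver form Pfkl, with 48.5% ± 4.94 (SD, n = 6), and the platelet form Pfkp, with 44.6% ± 3.87. The muscle form Pfkm held 6.98% ± 2.42. Pfkp held 47.5%, 50.4% and 44.2% in females and 41.6%, 39.8% and 43.9% in males, and the sexes did not overlap. The last 500 bases of the Pfkp transcript lie entirely within exons annotated to its neighbour Pitrm1, so reads there could be lost or shared, and the order of Pfkl and Pfkp is uncertain.

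In the aldolase, enolase and lactate dehydrogenase steps 1 gene held nearly all counts of the listed genes. Aldoa held 99.8% ± 0.147 (SD, n = 6) of aldolase counts; Aldoc, the brain form, had 6 of 4107, or 0.146% (exact 95% binomial interval 0.0536 to 0.318, counting error only). Eno1 held 94.2% ± 2.17 of the counts of the listed enolase genes and the muscle form Eno3 5.54% ± 2.16. The neuronal form Eno2 had 2 of 952 counts, or 0.210% (0.0255 to 0.757). Those 952 counts leave out Eno1b, annotated as protein-coding, which had 130 counts against 53 for Eno3. Ldha held 97.6% ± 0.449 of lactate dehydrogenase counts, from 97.1% to 98.4% in single libraries, and Ldhb held the other 2.38%.

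In the isocitrate dehydrogenase and succinyl-CoA ligase steps both genes of each pair held a sizeable share. Idh2, the mitochondrial NADP-linked isocitrate dehydrogenase, held 68.9% ± 1.80 (SD, n = 6) of the counts of the NADP pair, and its cytosolic relative Idh1 held 31.1%. Sucla2, the ATP-forming beta subunit of succinyl-CoA ligase, held 67.5% ± 5.08 of beta subunit counts, and the GTP-forming Suclg2 held 32.5%. The shared alpha subunit Suclg1 had 202 CPM, above both beta subunits (85.2 and 41.0 CPM). Of the 3 subunits of the NAD-linked isocitrate dehydrogenase, the X-linked Idh3g had 296 CPM, while Idh3b had 131 CPM and Idh3a, the catalytic subunit, 125 CPM. Per kilobase of exon the order Idh3g, Idh3b, Idh3a was the same, at 109, 38.2 and 24.7 CPM.

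Malate dehydrogenase was nearly evenly split, and it was the only one of the 8 steps in which the share of the leading gene did not overlap between the sexes. Mdh1, the cytosolic form of the malate-aspartate shuttle, held 47.6%, 51.8% and 50.2% of the pair's counts in females and 53.2%, 58.4% and 57.3% in males, and Mdh2, the TCA cycle form, held the rest. The means were 49.9% ± 2.12 and 56.3% ± 2.76 (SD, n = 3 each), and the groups did not overlap. The exact two-sided permutation test gave p = 0.1, the smallest that 3 against 3 libraries can give, and 0.8 after Benjamini-Hochberg adjustment over 8 steps. For the leading gene of each of the other 7 steps the sexes overlapped, and exact permutation p-values ran from 0.2 to 0.8 (for Sucla2, a difference of 6.80 percentage points, p = 0.2). The leading genes of the 8 steps (Hk3, Pfkl, Aldoa, Eno1, Ldha, Idh2, Sucla2 and Mdh1) also led when counts were divided by exon length.

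**Figure D2:**
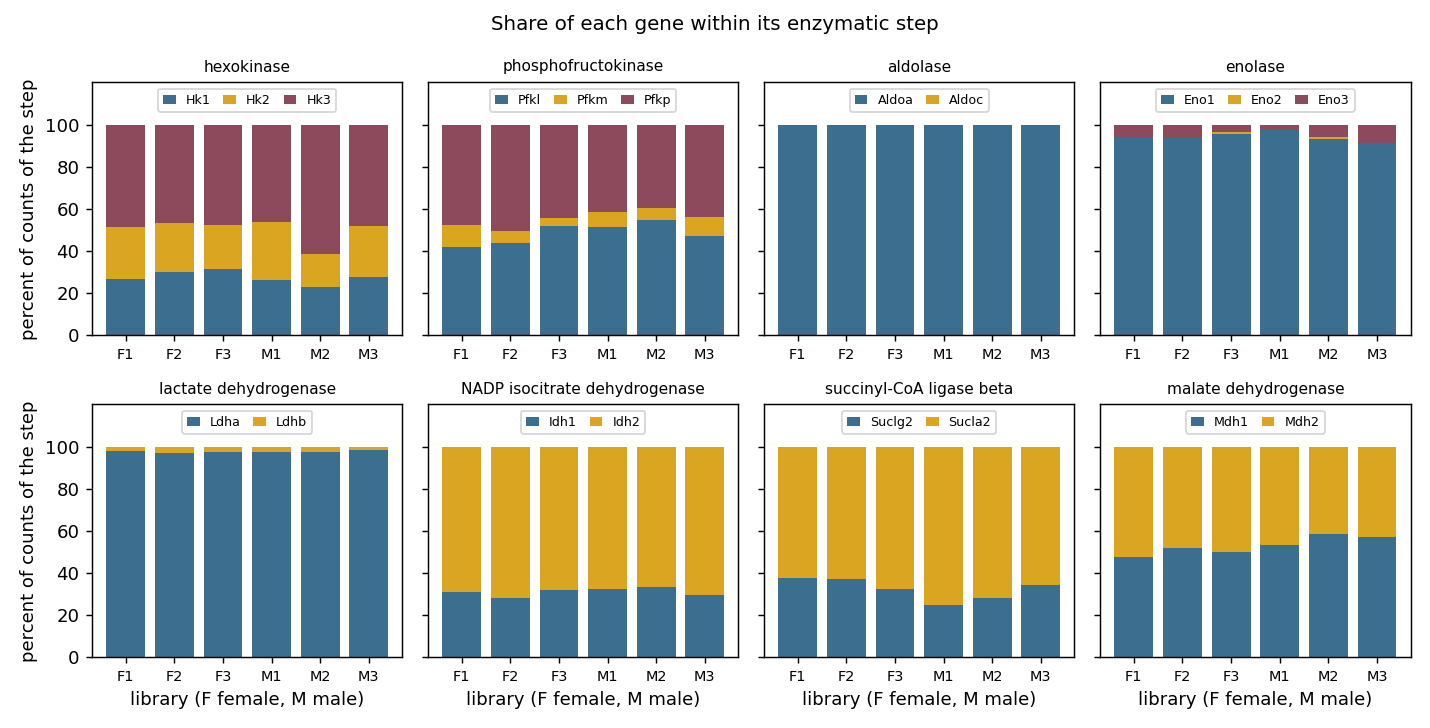
Percent of the counts of each step held by each gene, 1 bar per library (F female, M male, replicates 1 to 3), in 8 steps run by more than 1 gene. Aldolase, enolase and lactate dehydrogenase are nearly all Aldoa, Eno1 and Ldha in every library, while the other steps are shared. Eno1b is left out of enolase.

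Gapdh, which makes the first NADH of glycolysis and is often used as a reference gene, was lower in this table than Tpi1 and Gpi1, which act before it, and higher than Pgk1, Pgam1 and Eno1, which act after it. It had 187, 194 and 184 CPM in females and 167, 157 and 163 in males, below Tpi1, the isomerase just before it (mean 346 CPM), and below Gpi1 (455 CPM). Much of its 3′ end is shared with other genes. Of the 420 windows of 81 bases, the length of the inserts read here, in the last 500 bases of its transcript, 82.4% occur letter for letter in the transcript of another annotated gene, and 73 genes share at least 1 window, of which 70 are pseudogenes. The coding window found in most of them, in 44 other genes, is bases 758 to 838 of the 999 coding bases and lies at chr6:125162306-125162386 on the minus strand (GRCm38, GENCODE M21). It is shown because a read of it cannot be placed in the genome by sequence alone.
Gapdh: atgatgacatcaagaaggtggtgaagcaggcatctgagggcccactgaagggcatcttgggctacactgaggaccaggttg
The same letters are found in Gm7336, a processed pseudogene on chromosome 7 (51746647 to 51747878). Gm7336 had 1065 counts over the 6 libraries, nearly as many as the 1151 of Gapdh, and Gm13292 on chromosome 2 (11409031 to 11410030) had 352. The 35 sharing genes that are in the count table had 1555 counts in all. Gapdh itself thus held 42.5% of the 2706 counts of the group and Gm7336 39.4%.

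**Figure D3:**
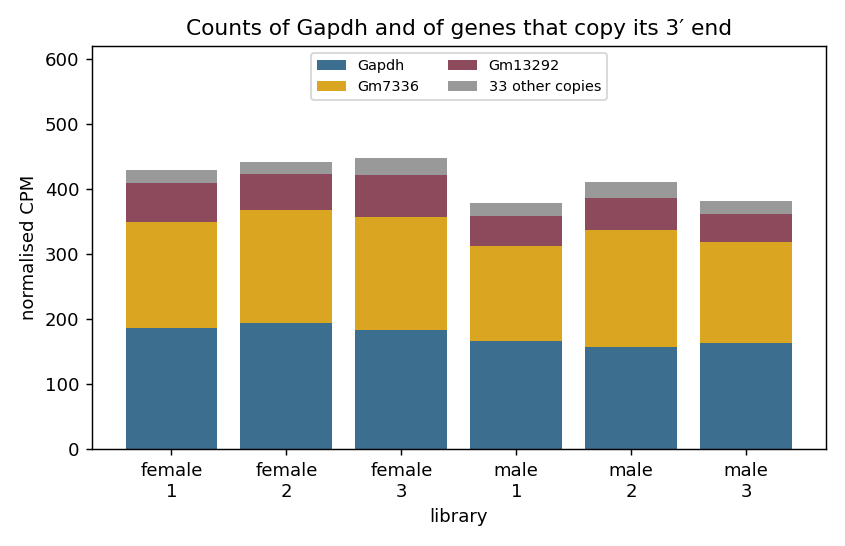
Normalised CPM of Gapdh, of the pseudogenes Gm7336 and Gm13292 and of 33 other genes that share an exact 81-base window with its 3′ end, stacked for each library. The Gapdh part is below the sum of the copies in every library, and the whole stack is 378 to 447 CPM.

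The split between Gapdh and its copies was much the same in each library. The copies held 56.5%, 56.1% and 59.0% of the group in females and 55.9%, 61.9% and 57.3% in males. Gapdh and its copies together came to 440 ± 9.28 CPM in females and 391 ± 18.1 in males (SD, n = 3 each), and the sexes did not overlap. The sources used here do not say how reads were assigned among copies, and its part in these levels was not tested.

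Fewer of the other members shared sequence in this way. Of the 43 tested members, 3 had at least 10% of their windows in another gene, beside 5.27% of all tested genes: Gapdh, Eno1 (58.6%) and Ldhb (16.0%). Eno1 shares windows with Eno1b on chromosome 18, which had 130 counts against 897 for Eno1. Pgk1 and Pdhb shared 0.48% and 2.14% of windows. Pgk1 (44.0 CPM) and Pgam1 (8.86 CPM), the kinase and the mutase that follow Gapdh, were lower than Gapdh. Few or none of their windows were copied exactly. Pgk1 was near the median of all tested genes (42.4 CPM), and Pgam1 far below it. Near copies with a mismatch were not counted, and their part in these levels was not tested. Rpe, like Pfkp, lies wholly within exons of a neighbour (Kansl1l) over its last 500 bases; at least 50% overlap was found in 2 of the 43 tested members and in 3.35% of all tested genes.

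No enzyme of these pathways differed between male and female cells by the test across all genes. At an adjusted p of 0.05 over 8460 genes (edgeR quasi-likelihood F test, Benjamini-Hochberg), 0 of the 43 tested members passed, beside 0.579% of all tested genes: 0.426% higher and 0.154% lower in males. Without adjustment, 4 members had p under 0.05 (Dld, Mdh1, Rpia and G6pdx), beside 11.3% of all tested genes. DESeq2 also called 0 members, with 2 at an unadjusted p under 0.05, and limma-voom called 0, with 4. Fold changes were above 0 for 22 members and below 0 for 21, from -0.56 for Pgam1 to 0.42 for Dld on the log2 scale, with a median of 0.00028 beside -0.0030 for all tested genes. The median size of the change, in either direction, was 0.12 for members and 0.17 for all tested genes. The 95% interval lay within 1.5 times either way for 32 of the 43 members and within a doubling for 42, all but Pgam1. Aldoc and Eno2 were too low to be tested, with 6 and 2 counts.

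**Figure D4:**
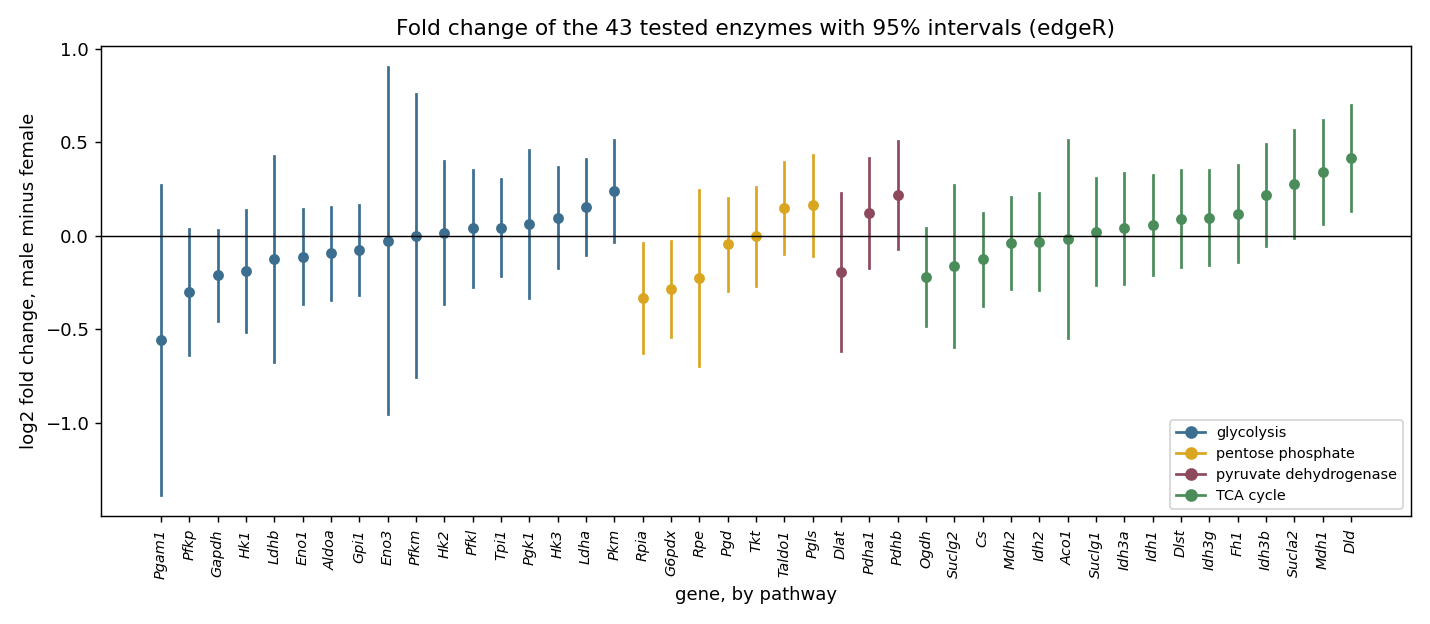
log2 fold change, male minus female, of the 43 tested enzymes with 95% intervals from edgeR's quasi-likelihood fit, ordered within each pathway. The points lie between -0.56 and 0.42, and most intervals include 0; those of Dld, Mdh1, Rpia and G6pdx do not, before adjustment over all genes.

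The summed levels of the pathways overlapped between the sexes. Glycolysis summed to 3784 ± 72.9 CPM in females and 3891 ± 233 in males (SD, n = 3 each). The pentose phosphate genes summed to 2304 ± 91.6 and 2306 ± 165 CPM, pyruvate dehydrogenase to 254 ± 20.6 and 274 ± 18.0 CPM, and the TCA cycle to 2887 ± 71.4 and 3041 ± 193 CPM. The TCA sum includes the cytosolic Mdh1, Idh1 and Aco1 and holds no succinate dehydrogenase subunit. Without Mdh1, its most abundant member, its male over female log2 ratio was 0.035, against 0.075 with it. Male replicate 2 was the highest of the 6 libraries for glycolysis (4160 CPM), the pentose phosphate pathway (2488 CPM) and the TCA cycle (3241 CPM). It also had the lowest TMM factor, 0.901, and as shares of raw counts it was not the highest in any of these 3 pathways.

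Of the 17 tested genes of glycolysis, 8 had folds above 0 and 9 below. Pkm had a log2 fold change of 0.24 ± 0.13 (SE; adjusted p = 0.515, edgeR), with all males above all females and male replicate 2 the highest; without that library it was 0.078. Pfkp had 74.3, 81.8 and 60.4 CPM in females and 59.5, 57.1 and 59.1 in males, a log2 fold change of -0.30 ± 0.16 (adjusted p = 0.501). Gapdh had -0.21 ± 0.12 (adjusted p = 0.519). Its copies Gm7336 and Gm13292 had log2 fold changes of -0.099 ± 0.12 and -0.34 ± 0.17, and neither passed (adjusted p = 0.832 and 0.445 by the same test). The leading forms of the glycolytic steps lay close to 0 in fold change, and only the groups of Ldha were apart. Hk3 had 126, 128 and 137 CPM in females and 141, 160 and 122 in males (log2 fold change 0.098 ± 0.13, adjusted p = 0.845, edgeR). Pfkl had 65.6, 71.2 and 71.0 CPM in females and 73.2, 78.4 and 63.9 in males (0.040 ± 0.15, adjusted p = 0.956), a fold that was below 0 when libraries were scaled by total count only or male replicate 2 was left out. Both genes overlapped through male replicate 3. Aldoa had 608, 681 and 662 CPM in females and 615, 560 and 652 in males (-0.093 ± 0.12, adjusted p = 0.841). Eno1 had 147, 148 and 134 CPM in females and 133, 129 and 136 in males (-0.11 ± 0.12, adjusted p = 0.810). For Ldha the log2 fold change was 0.15 ± 0.12 (adjusted p = 0.699), and the groups only just parted, at 888 CPM. With male replicate 2 left out, Ldha had a fold of 0.053 and Hk3 one of 0.010 on the log2 scale.

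Over all tested members, all males lay above all females for 4 (Pkm, Ldha, Dld and Sucla2), beside 7.57% of all tested genes. All females lay above all males for 5 (Pfkp, Gapdh, Pgam1, G6pdx and Ogdh), beside 8.03%.

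In the pentose phosphate pathway 2 of 7 genes had folds above 0 and 5 below. G6pdx encodes the dehydrogenase that commits glucose phosphate to the pathway and makes its first NADPH. It had 231, 250 and 221 CPM in females and 212, 167 and 195 in males, so each female library lay above each male one. Its log2 fold change was -0.28 ± 0.12 (SE), with a 95% interval from -0.54 to -0.025 before adjustment and adjusted p = 0.381 by the edgeR fit. Rpia, which isomerises ribulose phosphate to ribose phosphate, had 134, 140 and 116 CPM in females and 102, 84.9 and 121 in males. Its groups overlapped through male replicate 3, and the log2 fold change was -0.33 ± 0.14 (adjusted p = 0.359). Pgls, the lactonase between G6pdx and Pgd, had 278, 277 and 284 CPM in females and 268, 376 and 303 in males, a log2 fold change of 0.16 ± 0.13 (adjusted p = 0.698). The female libraries lay inside the male range, whose top was male replicate 2, and without that library the log2 fold change was 0.028. Tkt had a mean of 929 CPM in each sex (log2 fold change -0.0016 ± 0.13, adjusted p = 1.00), and the sign of so small a fold changed with scaling by RLE, a stricter filter, DESeq2 or single libraries left out.

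None of the pyruvate dehydrogenase genes passed the test, and their folds depended on single libraries. Pdhb, a subunit of the decarboxylating part, had 109, 132 and 94.4 CPM in females and 135, 129 and 128 in males, a log2 fold change of 0.22 ± 0.14 (adjusted p = 0.579 by the edgeR fit). Pdha1, its X-linked partner, had 86.2, 83.8 and 95.2 CPM in females and 94.9, 111 and 85.2 in males (0.12 ± 0.14, adjusted p = 0.825). Dlat, the acetyl-transferring core, had 45.1, 62.5 and 55.2 CPM in females and 62.9, 32.7 and 43.8 in males (-0.19 ± 0.20, adjusted p = 0.793). All 3 genes overlapped between the sexes. The fold of Dlat was -0.48 without male replicate 1 and -0.030 without male replicate 2. That of Pdhb was 0.36 without female replicate 2 and 0.11 without female replicate 3, and that of Pdha1 was 0.030 without male replicate 2.

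Of the 16 genes of the TCA cycle, 10 had folds above 0 and 6 below. Dld, the dehydrogenase subunit that pyruvate dehydrogenase and oxoglutarate dehydrogenase share, had 94.1, 83.1 and 99.0 CPM in females and 111, 122 and 135 in males. The groups did not overlap, and the log2 fold change of 0.42 ± 0.14 (SE) was the highest of all members, with adjusted p = 0.224 by the edgeR fit. Of the other subunits of oxoglutarate dehydrogenase, neither of which passed, Ogdh had a fold below 0 and Dlst one above 0: Ogdh had 200 ± 2.89 CPM in females and 170 ± 26.6 in males, and Dlst 154 ± 18.4 and 164 ± 4.61 (SD, n = 3 each). Mdh1 had 308, 359 and 339 CPM in females and 343, 498 and 441 in males. Its groups overlapped through male replicate 1, and the log2 fold change was 0.34 ± 0.13 (adjusted p = 0.306). Sucla2 had 75.9, 79.1 and 74.8 CPM in females and 85.8, 104 and 91.1 in males, a log2 fold change of 0.28 ± 0.14 (adjusted p = 0.466), with the groups apart. Idh2 had 296, 322 and 252 CPM in females and 284, 289 and 280 in males, and the wider female range enclosed the male one (-0.030 ± 0.12, adjusted p = 0.960).

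Leaving out male replicate 1, the male library nearest to the females, brought Mdh1 and Dld past the threshold. Their log2 fold changes were then 0.48 (adjusted p = 0.0124 by the edgeR fit) and 0.49 (adjusted p = 0.0461), and all genes called rose from 36 to 337 higher and from 13 to 78 lower in males. The 2 calls among 43 tested members thus came with a rise over all genes and are not particular to these enzymes. Under every other setting run the adjusted p of Mdh1 was between 0.198 and 0.709 and that of Dld between 0.173 and 0.633.

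**Figure D5:**
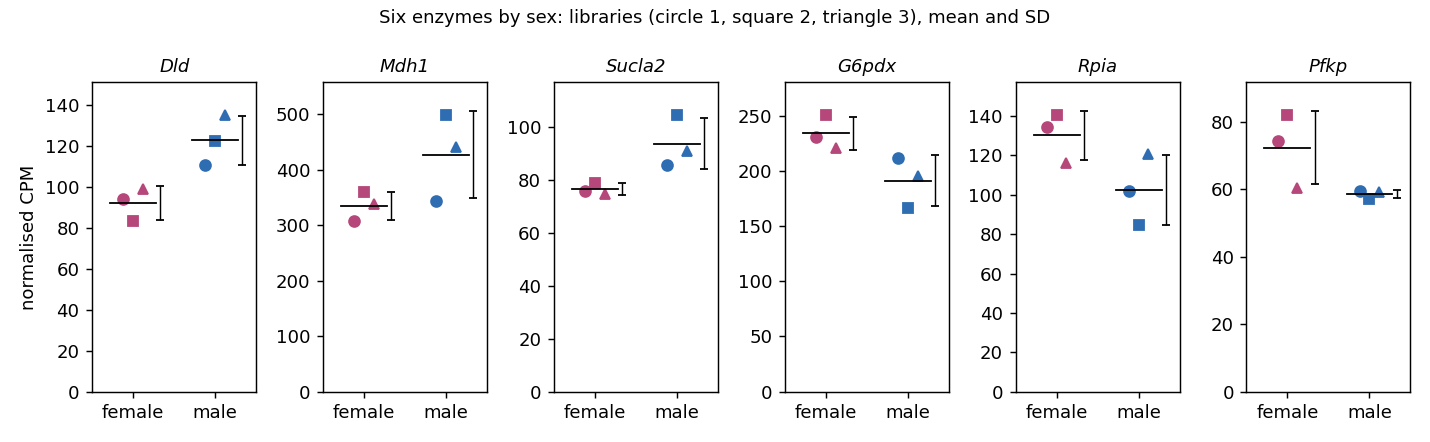
Normalised CPM of 6 enzymes in each library by sex (circle replicate 1, square 2, triangle 3), with the mean as a line and the SD beside it. Dld and Sucla2 were higher in every male library than in any female one and G6pdx and Pfkp lower, while Mdh1 and Rpia overlapped; none passed the test over all genes.

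Among the members, 4 lie on the X chromosome, of which females carry an extra copy that is largely silenced. G6pdx had the fold given above. Pgk1 had 44.3, 44.6 and 39.3 CPM in females and 48.0, 52.2 and 35.5 in males, a log2 fold change of 0.065 ± 0.19 (SE), below 0 when scaled by total count only or without male replicate 2. Idh3g had 269, 307 and 279 CPM in females and 271, 333 and 315 in males (0.098 ± 0.12). Pdha1 was given above, and its groups, like those of Pgk1 and Idh3g, overlapped. Adjusted p ran from 0.381 for G6pdx to 0.945 for Pgk1 by the edgeR fit. The 3 genes other than G6pdx had folds above 0, and their 95% intervals lay between -0.33 and 0.46.

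Other genes of the same pathways were read from lists of 76 further enzymes, regulators, transporters and hypoxia-inducible genes, of which 43 were tested. None of the 43 passed by the edgeR fit, beside 0.579% of all tested genes, and 3 had an unadjusted p under 0.05, beside 11.3%. These were Mxi1, a MYC antagonist induced by hypoxia (log2 fold change -0.59 ± 0.23, adjusted p = 0.315), Slc16a1, a lactate and pyruvate transporter (0.34 ± 0.16, adjusted p = 0.390), and Sdhb, the iron-sulfur subunit of succinate dehydrogenase (0.29 ± 0.13, adjusted p = 0.411). The most abundant were Bsg, the chaperone of lactate transporters, with 286 ± 15.2 CPM in females and 301 ± 32.8 in males (SD, n = 3 each), Sdha with 261 ± 28.6 and 227 ± 23.8, and Glud1, glutamate dehydrogenase, with 233 ± 13.1 and 225 ± 10.1. The 15 hypoxia-inducible genes to which Mxi1 belongs summed to 414 to 431 CPM in females and 376 to 413 CPM in males, without overlap. Of the 9 tested, 0 passed, 2 had folds above 0, and the median log2 fold change was -0.16. Glucose transporters were low, with 82 counts over the 6 libraries for Slc2a1 and 64 for Slc2a3. Among the members, Aco1, an aconitase of the cytosol that also acts as an iron sensor, had 147 counts.

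Markers of other cells differed between the libraries beside these results. The 12 erythroid markers, of which 3 were tested, summed to 180 to 195 CPM in females and 286 to 439 CPM in males, with Car1 and Car2 higher in males past the test and Alas2 not listed in the table. The third tested, the transferrin receptor Tfrc, was at 86.6 ± 9.44 CPM in females and 70.9 ± 6.08 in males (SD, n = 3 each) and did not pass, and without Car1 and Car2 the sums overlapped, at 102 to 120 CPM in females and 91.1 to 147 in males. The 7 megakaryocyte markers summed to 28.6 to 34.8 CPM in females and 46.9 to 116 in males, lowest of the males in male replicate 1, with Pf4 past the test. B and plasma cell markers summed to 11356 to 13279 CPM in females and 9157 to 10712 in males, with Ms4a1 lower in males past the test. Igkc was the largest part of that sum, at means of 7359 CPM in females and 5655 in males. Ighm, Jchain, Mzb1, Xbp1 and Cd79a overlapped between the sexes. Of the 8 tested, 1 had a fold above 0 (Xbp1, log2 fold change 0.016). The 8 lung epithelium markers summed to 159 to 225 CPM in females and 245 to 513 in males, with the 513 CPM in male replicate 2. The 7 mast cell, basophil and eosinophil markers summed to 168 to 209 CPM in females and 219 to 260 in males, with Cpa3 higher in males past the test. Mcpt8, Prss34 and Ms4a2 also had higher means in males. The eosinophil genes went the other way, with Prg2 at means of 33.4 CPM in females and 23.7 in males and Epx at 4.39 and 3.41. Kit was at 71.5 and 65.9 CPM. The immature myeloid sum was 14414 to 15121 CPM in females and 12904 to 13910 in males, with 0 of its 6 genes past the test. Mpo and Elane were lower in every male library than in any female one. Prtn3 overlapped, and 3 genes (Ctsg, Ms4a3 and Cebpe) had folds above 0. The median log2 fold change of the list was -0.0061. The part of these cells in the enzyme levels was not tested.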

How the data were processed

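RNA was measured in 6 libraries, 3 female and 3 male; titles gave sex and replicate. The counts the authors deposited are raw and not normalised, with 1 row per gene. Per the submitters' processing notes, the tools were featureCounts 2.0.1, HISAT2 2.2.1, Trim Galore 0.6.7, UMI-tools and DESeq2, and the builds GRCm38 and GRCh38, with no role or order. The sources used here do not say whether molecular identifiers were collapsed, whether strand was used or how reads with several matches were counted. PCR copies may therefore be counted, and reads of overlapping genes or of near-identical copies may be shared or lost.

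Genes were filtered with filterByExpr (minimum count 10, minimum total 15), scaled by TMM and tested male minus female with edgeR 4.0.16 in R 4.3.3 (quasi-likelihood F test, no covariate, Benjamini-Hochberg over 8460 genes at 0.05). The SE was taken as the absolute log2 fold change over the square root of F. DESeq2 1.42.0 and limma-voom (limma 3.58.1) were alternatives. Coordinates, exon lengths and transcript ends came from GENCODE M21 (GRCm38), and promoters from RefSeq. Shared windows are exact matches on either strand in transcripts of genes at another locus. Within each sex, libraries differed by more than counting error (chi-square per degree of freedom 2.15 to 4.62). The fits were tested on simulated counts. The members and the gene lists were chosen with earlier results of these data known. Genes given in full were those past the threshold, the 3 with the smallest p in each pathway, the leading gene of each step, the 3 most abundant and the 4 on X; of the other pathway genes, the 3 with the smallest p and the 3 most abundant. Slc2a1, Slc2a3, Gm7336, Gm13292, Eno1b, and the values of Hk2, Ogdh and Dlst were added after their values were seen. A result on 1 further gene is not reported here.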

Additional observations from a re-analysis of the deposited data

How the results depend on the processing

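The count of members past the threshold stayed at 0 with libraries scaled by RLE, upper quartile or total only, with no filter or a stricter one, with DESeq2, limma-voom and the replicate block, and was 0 to 2 when single libraries were left out; that of the other pathway genes stayed at 0 throughout. Of 294 alternative fold changes of the 21 named members, 281 kept their sign and side of the threshold, 2 passed (Mdh1 and Dld without male replicate 1) and 11 changed sign, all in genes with folds near 0. Scaled by library size only, which moved the median of all genes to -0.092, Pfkl was at -0.048 and Pgk1 at -0.023. Tkt was at 0.0023 with RLE, 0.0055 with the stricter filter and 0.0018 with DESeq2. With single libraries left out, Pfkl ranged from -0.015 to 0.12, Pgk1 from -0.030 to 0.22, Tkt from -0.11 to 0.076 and Idh2 from -0.12 to 0.054.

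Genes called higher in males numbered 81 with no filter and 56 with the replicate block, against 36, and 19 (without male replicate 3) to 337 (without male replicate 1) with libraries left out. Genes called lower numbered 23 by library size only, 35 with no filter, 7 by DESeq2, 8 by limma-voom and 22 with the replicate block, against 13, and 4 (without male replicate 3) to 78 (without male replicate 1) with libraries left out and 8 without female replicate 2. Male over female log2 ratios of the summed levels by library size only were -0.058 for glycolysis, -0.098 for the pentose phosphate pathway, -0.024 for the TCA cycle and -0.055 for all members, against 0.040, 0.0011, 0.075 and 0.044. Per exon length, the leading share was 65.6% for Hk3, 57.3% for Pfkl, 84.5% for Eno1, 95.1% for Ldha and 61.1% for Mdh1. The cause of these shifts was not tested.

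Residuals of same-numbered libraries correlated at 0.030, 0.034 and 0.048, too weakly to pair them, although each correlated best with its own number; the block changed no call among members (adjusted p for Dld 0.173, for Mdh1 0.198). At this depth, genes such as Pgam1, Eno3 and Pfkm have wide intervals, and Aldoc and Eno2 could not be tested.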
